A study of Mus musculus with 12 samples.

Results

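The measurements below compare abdominal fat of mice that received a TSC22D4 shRNA adenovirus with fat of mice that did not, over all named genes of one array series. The members were chosen by treatment label alone: 6 of the 12 arrays came from mice given the TSC22D4 virus (3 with it alone, 3 with it and an LCN13 virus), and 6 came from mice without it (3 with control virus, 3 with the LCN13 virus). LCN13 status was kept as a second factor, so that each difference could be read without and with the LCN13 shRNA. All 23185 probe sets with a gene symbol, of 25206 in the table, were compared on the log2 scale.

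The strain name of all mice was BKS.Cg-Dock7m +/+ Leprdb/J. Mice homozygous for Leprdb have no functional leptin receptor and become obese and diabetic. The genotype field of the labels reads WT in spite of the Leprdb allele in the strain name. The labels thus do not settle whether these mice were homozygous. The mice were 12 weeks old and were killed 1 week after the injection. Controls received 4e9 plaque-forming units (pfu) of control shRNA virus, LCN13 mice received 2e9 of LCN13 shRNA virus with 2e9 of control virus, TSC22D4 mice received 2e9 of TSC22D4 shRNA virus with 2e9 of control virus, and mice of the combined arm had 2e9 each of the LCN13 and TSC22D4 viruses without any control virus. Each treatment was given to 7 mice (28 in all), and 3 that the submitters called representative were arrayed, so the animals were not a random draw. The promoter of the shRNA and the tissue it reached are not stated in the labels. In both LCN13 statuses the TSC22D4 virus took the place of 2e9 pfu of control virus, so that a gain of one and a loss of the other cannot be told apart in any value below. Control virus went from 4e9 to 2e9 pfu without LCN13 shRNA and from 2e9 to 0 with it. In the interaction, LCN13 status and control virus amount therefore cannot be told apart either.

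TSC22D4 belongs to the TSC22 family of leucine zipper proteins that regulate transcription, and in liver it has been tied to lipid and glucose metabolism. LCN13 is a secreted lipocalin, a small carrier of hydrophobic molecules. White fat takes up glucose and fatty acids, makes triglyceride, can store a little glycogen and secretes hormones such as leptin. Cells that sense viral nucleic acid make type I interferon, which switches on antiviral genes through a DNA element in their promoters.

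The tissue label was checked with adipocyte markers. Of 10 listed, 7 were measured, and each had a mean level at or above percentile 98.7 of named genes, with Lep and Fabp4 both at 14.0 log2. Their mean per array lay between -0.07 and 0.05 log2 of the mean over all arrays.

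Neither shRNA target was lower in fat by these probe sets. Tsc22d4 read 7.59, 7.57 and 7.88 log2 in the control arrays, 7.59, 7.74 and 7.67 in the LCN13 arrays, 7.74, 7.72 and 7.56 in the TSC22D4 arrays and 7.59, 7.64 and 7.59 in the combined arrays, and these groups overlapped. The averaged difference of Tsc22d4 was -0.03 (SE 0.0571, limma adjusted p = 0.835). Over the leave-one-out fits it ran from -0.06 to 0.02. Lcn13, listed as Obp2a, lay between 5.71 and 5.79 log2 on all arrays, near the lower end of the scale, where a decrease could not have been seen. Its LCN13 difference, averaged over TSC22D4 status, was -0.02 (SE 0.0134, limma adjusted p = 0.477), and its TSC22D4 difference was 0.02 (adjusted p = 0.621). The TSC22 family, Tsc22d4 included, gave no call (0 of 4 by limma, 0 at an unadjusted p under 0.05 and 0 with array weights).

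One feature of the reference arrays bears on every averaged value. LCN13 replicates 5 and 6 stood apart from LCN13 replicate 8: their mean over 15 mesothelial markers was 0.49 above the 12-array mean on each, against -0.12 on replicate 8. For 6 red blood cell markers the same arrays read -0.69, -0.71 and 0.37. The control arrays were also spread on these markers, at 0.232, -0.405 and -0.889, so this trait is not particular to the LCN13 arm. Values without LCN13 replicates 5 and 6 are given beside the main results because of the mesothelial markers. With them left out the LCN13 arm is a lone array, assumed to vary like the other groups.

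Averaged over LCN13 status, 323 genes passed limma at a Benjamini-Hochberg adjusted p under 0.05, which is 1.39% of the genes tested (3727 passed at an unadjusted p under 0.05, 1877 higher and 1850 lower). Of all 23185 genes, 47.25% had a positive difference. Of these, 130 (0.561%) rose and 193 (0.832%) fell with the TSC22D4 virus. The increases were small: 1 gene, the glycogen synthase Gys2, rose at least 2-fold, while 23 genes fell at least 2-fold. The median difference of the 130 higher genes was 0.25 without and 0.22 with LCN13 shRNA, and 129 of them had the same sign in both. Among the 193 lower genes the medians were -0.56 without and -0.16 with LCN13 shRNA, and 181 had the same sign. Both sets were chosen on the average of these differences, which favours a shared sign. Their sign counts and medians are therefore a description, and genes chosen without LCN13 shRNA alone are given below. The interaction, which is the difference with LCN13 shRNA minus that without, was called for 1 of the 130 and for 68 of the 193. Each of those 68 fell more without LCN13 shRNA (median -1.39 against -0.14). Their interactions were all positive and their averages negative, so this follows from the choice and is a description. For the 125 lower genes without a called interaction the medians were -0.34 and -0.17.

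**Figure D1:**
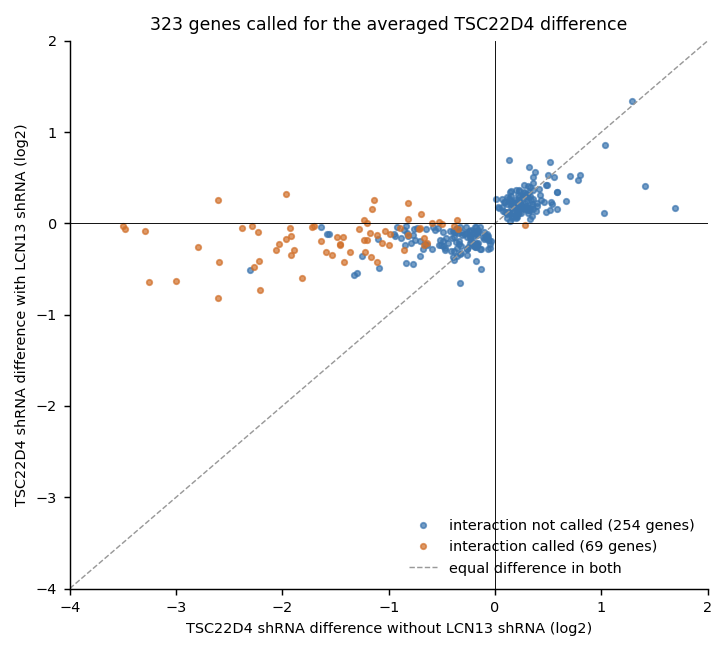
Each point is one of the 323 genes called for the averaged TSC22D4 difference, with its log2 difference without LCN13 shRNA (TSC22D4 minus control) on the x axis and with LCN13 shRNA (combined minus LCN13) on the y axis. Of the 69 genes with a called interaction, 68 lie to the left of 0 on the x axis and Mrps2 lies to the right (0.28). Each of the 68 is farther from 0 on the x axis than on the y axis. That follows from a negative average with a positive interaction. The 130 higher genes were chosen on the average of both differences. They lie around the dashed line of equal differences, with medians of 0.25 and 0.22.

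Overlap of the arrays was counted as well. The 3 arrays with the TSC22D4 virus lay above the 3 without it in both LCN13 statuses for 320 of all named genes (1.38%) and below for 300 (1.29%). Of the 130 genes called higher, 103 did so, as did 101 of the 193 called lower, both chosen with the same arrays. All 6 arrays with the virus lay above all 6 without for 149 named genes (0.643%) and below for 114 (0.492%). That held for 72 of the called higher genes and 54 of the called lower ones.

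Within a single LCN13 status the calls were unequal in number. Without LCN13 shRNA, 272 genes passed (1.17%), 68 higher and 204 lower. With LCN13 shRNA, 2 passed (0.00863%): Dnajb9 rose and Samd9l fell (2477 genes at an unadjusted p under 0.05). Both of these calls were lost without control replicate 2, LCN13 replicate 5 or 6, TSC22D4 replicate 11 or combined replicate 13 or 14. They were also lost with only the 6 arrays of that status in the fit. The 3 arrays per group are different mice in the 2 statuses, so each status can be read against the other. Of the 68 genes called higher without LCN13 shRNA, 64 (94.1%) were also positive with it, against 47.9% of all named genes, with medians of 0.35 and 0.13. Of the 204 called lower, 146 (71.6%) were negative with LCN13 shRNA, against 52.0% of all genes, with medians of -0.76 and -0.07. The first median of each pair comes from the comparison that chose the genes and is a description. Across all 23185 genes, 92 passed the interaction itself (0.397%), 85 with a positive and 7 with a negative sign.

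Left-out arrays changed the number of calls. All 323 genes kept their sign in each of the 12 leave-one-out fits. They were chosen with the same arrays, so a change of sign was hardly possible and this is a description. The count ran from 132 without LCN13 replicate 5 to 718 without LCN13 replicate 8, and it was 155 without LCN13 replicate 6. Removing TSC22D4 replicate 10, 11 or 12 left 161, 157 and 186 calls, and removing combined replicate 13 or 14 left 155 and 188. In every one of the 12 fits, 24 of the 130 higher and 87 of the 193 lower genes were called. With LCN13 replicates 5 and 6 both left out, 61 genes were called, 60 of them among the 323.

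**Figure D2:**
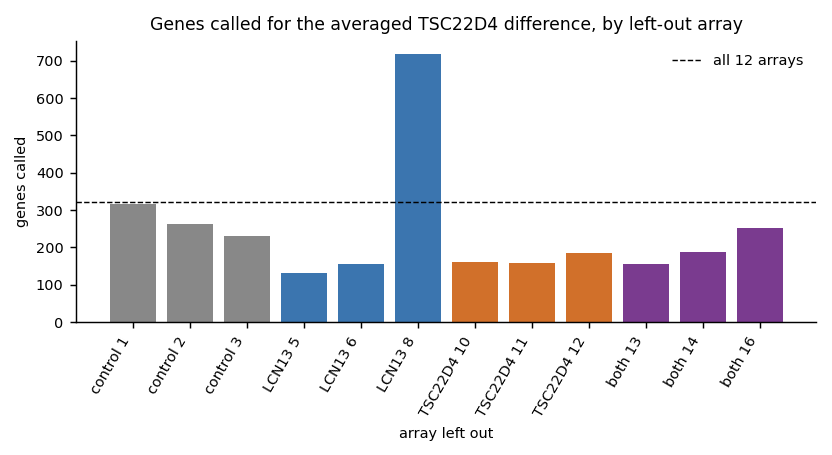
Bars give the number of genes called for the averaged TSC22D4 difference (limma, adjusted p under 0.05) with the array named on the x axis left out, coloured by group, and the dashed line marks 323 calls with all 12 arrays. The bar without LCN13 replicate 8 (718) is the tallest and that without LCN13 replicate 5 (132) the shortest.

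Genes of glycogen synthesis were among the increases. Gys2, the glycogen synthase isoform best known from liver, read 8.47, 8.61 and 8.12 log2 in control arrays, 7.50, 7.71 and 8.66 in LCN13 arrays, 9.62, 9.75 and 9.71 in TSC22D4 arrays and 9.18, 9.05 and 9.65 in combined arrays. All 6 arrays with the TSC22D4 virus were above the 6 without it. Its averaged difference was 1.31 (SE 0.197, limma adjusted p = 0.0158), a 2.49-fold increase, with 1.29 without and 1.34 with LCN13 shRNA. The call held in each leave-one-out fit, where the difference ran from 1.20 to 1.49. Without LCN13 replicates 5 and 6 it was 0.96 (adjusted p = 0.0834).

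Gbe1, the branching enzyme that joins new branches to the growing glycogen chain, read 10.13, 9.94 and 9.96 in control, 9.98, 10.06 and 10.20 in LCN13, 10.54, 10.60 and 10.50 in TSC22D4 and 10.33, 10.16 and 10.39 log2 in combined arrays. The groups were apart without LCN13 shRNA and overlapped with it. Gbe1 rose by 0.38 (SE 0.0541, limma adjusted p = 0.0129), and by 0.32 without LCN13 replicates 5 and 6 (adjusted p = 0.18). Glycogenin, Gyg, the protein primer of glycogen, was looked at after its value was seen. It rose by 0.18 (SE 0.0286, limma adjusted p = 0.0189), with higher arrays in both LCN13 statuses. Leaving out LCN13 replicate 5, TSC22D4 replicate 11 or TSC22D4 replicate 12 ended the call of Gyg (adjusted p up to 0.0583), as did leaving out LCN13 replicates 5 and 6 (0.13, adjusted p = 0.105). In the list of 23 measured glycolysis, pyruvate and glycogen genes, 2 were called higher (Gys2 and Gbe1) and 0 lower, with a median of 0.09 against -0.0023 for all named genes. At an unadjusted p under 0.05, 9 were higher and 1 lower, against 1877 and 1850 of all 23185 genes.

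**Figure D3:**
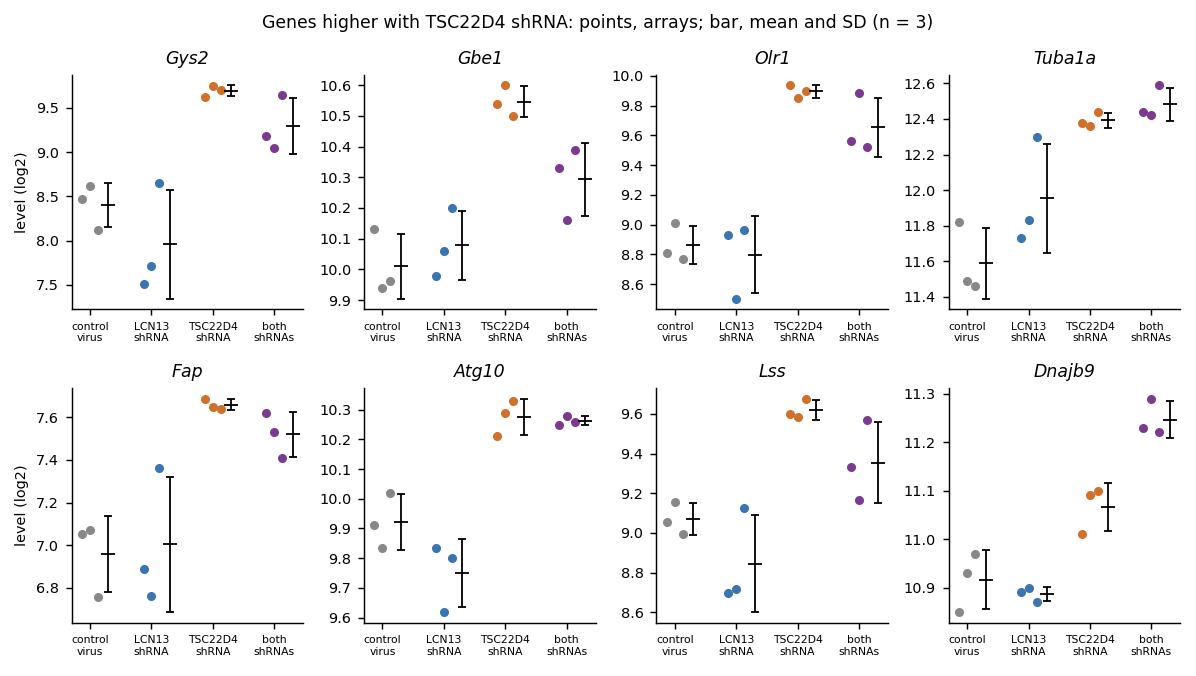
Points are single arrays and bars the mean with SD (n = 3 arrays per group) of the log2 level of 8 genes called higher with the TSC22D4 virus. In Gys2 all 6 arrays with the virus lie at 9.05 or higher, while those without it reach at most 8.66.

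Olr1 codes for LOX-1, a receptor for oxidised low-density lipoprotein. Its levels were 8.81, 9.01 and 8.77 log2 in control, 8.93, 8.50 and 8.96 in LCN13, 9.94, 9.85 and 9.89 in TSC22D4 and 9.56, 9.88 and 9.52 in combined arrays. The 6 arrays with the TSC22D4 virus were above the 6 without, at a difference of 0.94 (SE 0.094, limma adjusted p = 0.00131) or 1.92-fold. Olr1 still passed without LCN13 replicates 5 and 6 (0.86, adjusted p = 0.014).

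Atg10, an enzyme that conjugates ATG12 to ATG5 in the formation of autophagosomes, also rose without overlap. It read 9.91, 9.83 and 10.02 in control, 9.83, 9.62 and 9.80 in LCN13, 10.21, 10.29 and 10.33 in TSC22D4 and 10.25, 10.28 and 10.26 log2 in combined arrays. The increase was 0.44 (SE 0.0436, limma adjusted p = 0.00134), with 0.36 without and 0.51 with LCN13 shRNA. It too passed without LCN13 replicates 5 and 6 (0.41, adjusted p = 0.014).

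Among chaperones of the endoplasmic reticulum, Dnajb9, a co-chaperone of BiP that the unfolded protein response induces, was the one gene that rose with a call also inside the LCN13 shRNA arms. The call inside these arms was lost in the leave-one-out fits listed above. Dnajb9 read 10.85, 10.93 and 10.97 in control, 10.89, 10.90 and 10.87 in LCN13, 11.01, 11.09 and 11.10 in TSC22D4 and 11.23, 11.29 and 11.22 log2 in combined arrays. Again all 6 arrays with the virus were above the 6 without. The averaged increase was 0.25 (SE 0.0249, limma adjusted p = 0.00117), with 0.15 without (adjusted p = 0.1) and 0.36 with LCN13 shRNA (adjusted p = 0.0445), and without LCN13 replicates 5 and 6 it was 0.26 (adjusted p = 0.0356). Sdf2l1, another protein of endoplasmic reticulum folding, rose by 0.21 (adjusted p = 0.0254), a call lost in 6 of 12 leave-one-out fits (LCN13 replicates 5 and 6, TSC22D4 replicates 10 and 11, combined replicates 14 and 16) and without LCN13 replicates 5 and 6 together (0.19, adjusted p = 0.263). The other 20 of 22 measured genes of this list gave no call, and the list median was 0.0042.

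Tuba1a, an alpha-tubulin chain of microtubules, rose by 0.67 (SE 0.101, limma adjusted p = 0.0162). It read 11.82, 11.49 and 11.46 in control, 11.73, 11.83 and 12.30 in LCN13, 12.38, 12.36 and 12.44 in TSC22D4 and 12.44, 12.42 and 12.59 log2 in combined arrays. LCN13 replicate 8 came close to the arrays with the TSC22D4 virus, and without LCN13 replicates 5 and 6 the difference was 0.49 (adjusted p = 0.105). It was the one call among 15 tubulin and microtubule genes, of which 6 were positive.

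Fap, a cell surface protease of activated fibroblasts, rose by 0.61 (SE 0.102, adjusted p = 0.025), with all 6 arrays with the virus between 7.41 and 7.69 and all 6 others between 6.75 and 7.36 log2. The call of Fap ended in 7 of 12 leave-one-out fits (LCN13 replicates 5 and 6, each TSC22D4 array, and combined replicates 13 and 14), with adjusted p up to 0.0731, and without LCN13 replicates 5 and 6 together (0.43, adjusted p = 0.136). Of 13 fibroblast and preadipocyte markers 1 rose, 1 fell and 6 were positive. The marker that fell was Gsn, an actin-severing protein (-0.29, SE 0.0522, limma adjusted p = 0.0345), which was lost in 9 leave-one-out fits (all but LCN13 replicate 8, combined replicates 13 and 16) and without LCN13 replicates 5 and 6 together (-0.25, adjusted p = 0.314).

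The remaining genes named by rank rose by 0.39 to 0.51 on the log2 scale. They were chosen for a call on average with arrays apart in both LCN13 statuses. Krt222, a keratin-like protein, rose by 0.45 (limma adjusted p = 0.0139), and its call held in each leave-one-out fit. Histone H3c14 (0.51), Tmem64 (0.45), the chitinase-domain protein Chid1 (0.45) and Echdc1 (0.39), a decarboxylase that clears ethylmalonyl-CoA, had all 6 arrays with the virus above the 6 without. Ncr1, an activating receptor of natural killer cells, (0.47), the flagellin receptor Tlr5 (0.47), the apolipoprotein Apoc4 (0.46) and the adhesion molecule Nrcam (0.40) were apart within each LCN13 status but overlapped across the 12 arrays. The calls of Ncr1 and Tlr5 ended in 11 of 12 leave-one-out fits, with combined replicate 13 and LCN13 replicate 8 as the respective exceptions. Those of Apoc4, Nrcam and Echdc1 ended in 10 fits, and each was kept without LCN13 replicate 8 and in 1 more fit (control replicate 1, TSC22D4 replicate 10 and control replicate 2, respectively). Tmem64 was lost in 8 (kept without control replicates 1 and 2 and LCN13 replicates 6 and 8), H3c14 in 7 (kept without control replicates 1 and 3, LCN13 replicate 8, TSC22D4 replicate 12 and combined replicate 14) and Chid1 in 4 (LCN13 replicate 6, TSC22D4 replicates 10 and 11, combined replicate 13). Tmem64 passed without LCN13 replicates 5 and 6 (0.34, adjusted p = 0.0103), and Krt222 and the other 7 did not (adjusted p from 0.191 to 0.334).

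A further group of secreted and surface proteins rose on average, with their larger differences without LCN13 shRNA and no called interaction. Angptl8, a feeding-induced inhibitor of lipoprotein lipase, read 9.26, 9.29 and 8.55 in control, 9.16, 9.31 and 9.74 in LCN13, 10.69, 10.94 and 10.55 in TSC22D4 and 9.69, 9.10 and 9.93 log2 in combined arrays. The combined arrays overlapped the LCN13 arrays. Its averaged difference was 0.93 (SE 0.187, limma adjusted p = 0.0481), with 1.70 without and 0.17 with LCN13 shRNA and an interaction of -1.52 (adjusted p = 0.243). The averaged call of Angptl8 was lost in 10 of 12 leave-one-out fits, all but those without LCN13 replicate 8 and combined replicate 14. Cd209a, a C-type lectin of dendritic cells, differed by 0.57 (limma adjusted p = 0.0154), with 1.02 without and 0.12 with LCN13 shRNA (interaction adjusted p = 0.0833). It was the one call among 14 dendritic cell markers. Nrg4, a neuregulin secreted by brown and beige fat cells, differed by 0.46 (limma adjusted p = 0.025), with 0.59 and 0.34, and was lost in 9 leave-one-out fits (all but control replicate 1, LCN13 replicate 8 and combined replicate 16). Without LCN13 replicates 5 and 6 none of these genes passed (adjusted p = 0.0586 for Cd209a, 0.104 for Nrg4 and 0.37 for Angptl8). In bulk fat, fewer cells of a type and less RNA per cell cannot be told apart.

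Lipid synthesis genes were mostly positive, with few calls. Of 18 measured de novo fatty acid synthesis genes, 16 were positive (47.25% of all named genes were), with a median of 0.23 (0.28 without and 0.19 with LCN13 shRNA), but 0 were called higher by limma and 1 was called lower. At an unadjusted p under 0.05, 12 were higher (1877 of all 23185 genes), and with array weights 7 were called higher (394 of all genes). Leave-one-out fits called 9 without LCN13 replicate 8, 3 without control replicate 1, 1 without TSC22D4 replicate 10 and 0 in every other fit. The median without LCN13 replicates 5 and 6 was 0.14. Members with the next smallest p-values, named after their values were seen, were the citrate-cleaving enzyme Acly (0.37, adjusted p = 0.0566), the carboxylase Acaca that makes malonyl-CoA (0.51, adjusted p = 0.0669) and the acetyl-CoA synthetase Acss2 (0.62, adjusted p = 0.0737). Fasn, the fatty acid synthase, averaged 0.35 (SE 0.0902, adjusted p = 0.0979), and Srebf1, the regulator of these enzymes, 0.26 (SE 0.0554, adjusted p = 0.0597).

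Fads1, the delta-5 desaturase of polyunsaturated fatty acids, was the member that fell. It read 11.15, 11.14 and 11.22 in control, 11.38, 11.30 and 11.14 in LCN13, 11.01, 10.93 and 10.86 in TSC22D4 and 11.04, 11.07 and 11.07 log2 in combined arrays. The arrays did not overlap, at a difference of -0.23 (SE 0.0416, limma adjusted p = 0.0359). That call ended in 10 of 12 leave-one-out fits (all but LCN13 replicate 8 and TSC22D4 replicate 10) and without LCN13 replicates 5 and 6 together (-0.16, adjusted p = 0.217).

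In cholesterol synthesis and uptake, 16 of 18 measured genes were positive (47.25% of all named genes), with a median of 0.13. The one call was Lss, the lanosterol synthase that closes the sterol rings. Lss read 9.06, 9.16 and 8.99 in control, 8.70, 8.71 and 9.13 in LCN13, 9.60, 9.58 and 9.68 in TSC22D4 and 9.33, 9.16 and 9.57 log2 in combined arrays. All 6 arrays with the virus lay above the 6 without, closest to control replicate 2, with a difference of 0.53 (SE 0.0888, limma adjusted p = 0.025). Leaving out control replicate 3, LCN13 replicate 5 or 6, any TSC22D4 array or combined replicate 13 ended the call (adjusted p up to 0.0695), as did leaving out LCN13 replicates 5 and 6 together (0.39, adjusted p = 0.197). Of 23 triglyceride synthesis genes 15 were positive and 0 were called by limma (10 higher and 0 lower unadjusted, 4 higher with array weights). The matching counts over all 23185 genes were 1877, 1850 and 394. The phosphatidate phosphatase Lpin1 (0.29, adjusted p = 0.0532), the glycerol phosphate dehydrogenase Gpd1 (0.23, adjusted p = 0.0568) and the acyltransferase Agpat2 (0.24, adjusted p = 0.0697) had the smallest p-values.

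Fatty acid uptake held 1 call of 14 measured genes. Slc27a1, the transporter FATP1, read 11.19, 11.25 and 11.24 in control, 10.90, 10.91 and 10.84 in LCN13, 10.86, 10.76 and 10.90 in TSC22D4 and 10.81, 10.93 and 10.83 log2 in combined arrays. The controls stood above the other 9 arrays, which overlapped. The averaged difference of -0.21 (SE 0.0292, limma adjusted p = 0.0121) was thus -0.39 without and -0.03 with LCN13 shRNA, and the interaction passed (0.36, adjusted p = 0.0367). Without LCN13 replicates 5 and 6 the averaged difference was -0.18 (adjusted p = 0.191).

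**Figure D4:**
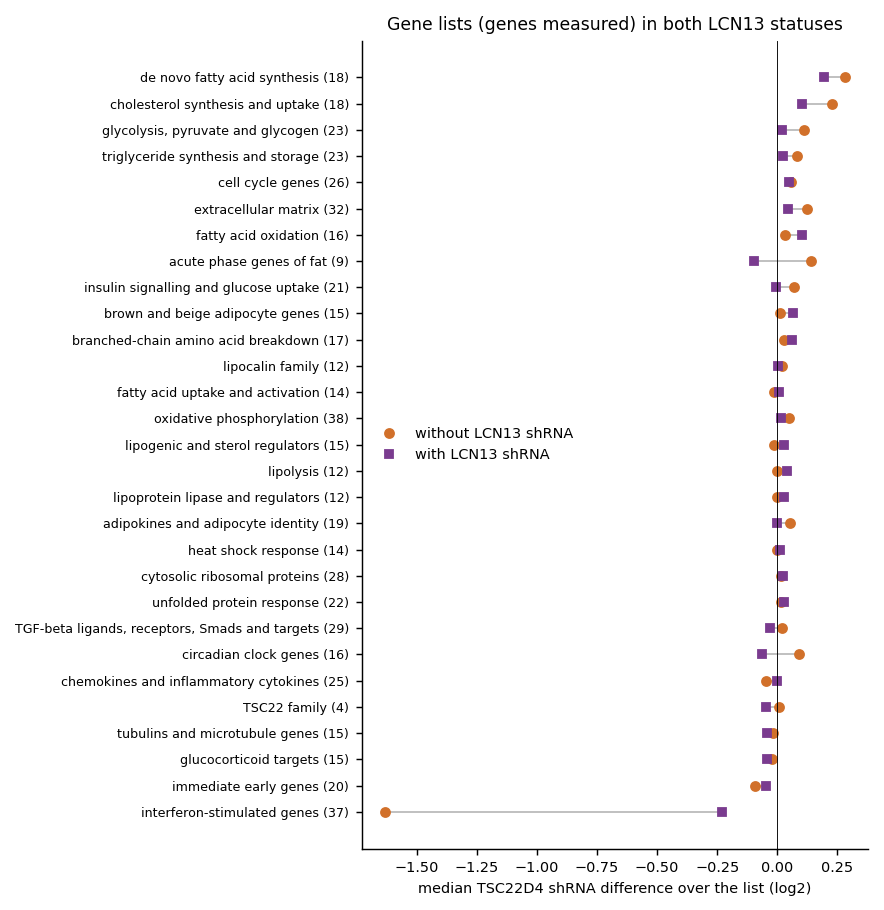
For each gene list (measured genes in brackets) the circle gives the median log2 TSC22D4 difference without LCN13 shRNA and the square that with it, ordered by the averaged median. Interferon-stimulated genes stand at -1.63 and -0.23, and de novo fatty acid synthesis genes at 0.28 and 0.19.

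Interferon-stimulated genes were lower with the TSC22D4 virus, above all without LCN13 shRNA. Of 37 measured, 31 were called lower and 0 higher by limma (35 lower and 0 higher unadjusted, and 34 lower with array weights). The matching unadjusted and array-weight counts over all 23185 genes were 1850, 1877 and 416. Their median was -0.88, against -0.0023 for all named genes. It was -1.63 without LCN13 shRNA, where 34 were called, and -0.23 with it, where 1 was called (Samd9l) and 33 of 37 were negative. The interaction passed for 26 of them. Leaving out 1 array kept between 28 and 32 calls, and 27 were called without LCN13 replicates 5 and 6. The mean of the list relative to the 12-array mean was 1.24, 1.50 and 1.21 log2 in the control arrays, which had 4e9 pfu of control virus. In the groups with 2e9 it was -0.31, -0.36 and -0.38 (LCN13) and -0.37, -0.48 and -0.29 (TSC22D4). With no control virus it was -0.59, -0.53 and -0.62. The LCN13 and TSC22D4 groups overlapped, while the combined arrays lay below both and the controls above all others.

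Promoters of these genes are shown because the interferon element lies there. The 250 bases before the annotated start, from RefSeq on GRCm38.p6, are written 5′ to 3′ on the gene's strand in lower case. Capitals mark the interferon element core GAAANNGAAA or the E-box CACGTG, each searched on both strands, and the 2 kinds of motif do not overlap in these windows. Ifit1 (chr19:34640639-34640888, plus strand) held 2 cores, on the reverse strand and ending 94 and 75 bases before the start. Oas1g (chr5:120887614-120887863, minus strand) held 2 that overlap each other, and Oas3 (chr5:120777660-120777909, minus strand) 1, while Samd9l (chr6:3399572-3399821, minus strand), which fell in both LCN13 statuses, held none in this window. Dnajb9 (chr12:44210069-44210318, minus strand) is given as a gene called higher on average and with LCN13 shRNA, with 1 E-box ending 101 bases before the start.
Ifit1: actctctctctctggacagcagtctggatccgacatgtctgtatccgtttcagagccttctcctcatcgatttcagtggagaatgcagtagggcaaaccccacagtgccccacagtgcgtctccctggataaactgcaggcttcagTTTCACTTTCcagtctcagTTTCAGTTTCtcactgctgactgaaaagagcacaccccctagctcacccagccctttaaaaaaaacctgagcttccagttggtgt
Oas1g: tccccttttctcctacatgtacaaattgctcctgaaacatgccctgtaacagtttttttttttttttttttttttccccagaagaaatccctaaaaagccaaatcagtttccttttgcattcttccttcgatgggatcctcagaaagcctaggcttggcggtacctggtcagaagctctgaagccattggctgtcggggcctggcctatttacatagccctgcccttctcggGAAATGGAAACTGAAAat
Oas3: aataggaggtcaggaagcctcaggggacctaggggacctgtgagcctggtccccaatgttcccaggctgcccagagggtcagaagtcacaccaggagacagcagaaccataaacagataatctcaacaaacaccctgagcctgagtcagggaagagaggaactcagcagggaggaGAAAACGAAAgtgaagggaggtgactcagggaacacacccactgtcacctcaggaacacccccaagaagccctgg
Samd9l: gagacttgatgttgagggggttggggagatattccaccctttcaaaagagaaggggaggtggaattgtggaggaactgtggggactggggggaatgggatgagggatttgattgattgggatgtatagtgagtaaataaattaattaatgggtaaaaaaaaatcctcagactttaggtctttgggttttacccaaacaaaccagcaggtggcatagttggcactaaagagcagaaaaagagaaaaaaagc
Dnajb9: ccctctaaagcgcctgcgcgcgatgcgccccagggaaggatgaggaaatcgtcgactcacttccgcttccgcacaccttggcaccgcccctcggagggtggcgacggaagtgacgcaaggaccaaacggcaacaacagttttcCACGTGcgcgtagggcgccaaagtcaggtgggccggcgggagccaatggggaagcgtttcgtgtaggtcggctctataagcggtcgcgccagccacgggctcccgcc

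Over all 17452 named genes with a promoter in the table, 594 (3.40%) held the interferon core in these 250 bases. It was present in 23 of 146 genes called lower (15.8%), in 15 of the 52 with a called interaction (28.8%) and in 8 of the 94 without (8.51%). Among 102 genes called higher, 3 held it (2.94%). Of 28 promoters of the interferon-stimulated list, 12 did (42.9%). The E-box was present in 1359 of all promoters (7.79%), in 10 of the 102 higher (9.80%) and in 7 of the 146 lower (4.79%). A match describes the letters and was not tested as a binding site.

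Ifit1, which binds viral RNA, read 11.87, 11.80 and 11.43 log2 in control, 8.82, 8.81 and 8.47 in LCN13, 8.44, 8.41 and 8.50 in TSC22D4 and 7.93, 8.24 and 8.02 in combined arrays. It was lower with the TSC22D4 virus in both statuses, with differences of -3.25 without and -0.64 with LCN13 shRNA. The averaged difference was -1.95 (SE 0.0934, limma adjusted p = 2.55e-05) and the interaction 2.61 (SE 0.187, adjusted p = 0.000444). Irf7, the transcription factor that amplifies interferon production, read 12.33, 12.69 and 12.55 in control, 10.28, 10.08 and 9.93 in LCN13, 10.08, 9.73 and 9.95 in TSC22D4 and 9.43, 9.25 and 9.15 in combined arrays. Each combined array was below each LCN13 array. Its difference was -2.60 without and -0.82 with LCN13 shRNA, -1.71 on average (SE 0.0906, limma adjusted p = 2.91e-05).

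Oas1g and Oas3, oligoadenylate synthetases that activate RNase L, showed the largest interactions among the named genes. Oas1g read 9.90, 10.53 and 9.98 in control, 6.43, 6.48 and 6.32 in LCN13, 6.69, 6.38 and 6.86 in TSC22D4 and 6.31, 6.50 and 6.33 log2 in combined arrays. The controls were high and all 9 others lay between 6.31 and 6.86, near the median of all deposited values (6.31), where further decreases are hard to see. The difference was -3.50 without and -0.03 with LCN13 shRNA (interaction 3.46, SE 0.234, adjusted p = 0.000409). For Oas3 the values were -3.48 and -0.07. Oas genes are similar in sequence and may share probe signal.

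Samd9l, an antiviral protein that restrains poxviruses and cell growth, was the gene that fell with a call in each LCN13 status. The call with LCN13 shRNA was lost in the leave-one-out fits listed above. Samd9l read 9.63, 9.62 and 9.62 in control, 8.98, 8.97 and 8.97 in LCN13, 8.40, 8.47 and 8.52 in TSC22D4 and 8.56, 8.56 and 8.70 log2 in combined arrays. All 6 arrays with the TSC22D4 virus were below the 6 without, and the LCN13 arrays lay between. The averaged difference was -0.77 (SE 0.0273, limma adjusted p = 5.3e-06), with -1.16 without (adjusted p = 1.37e-06) and -0.37 with LCN13 shRNA (adjusted p = 0.0445). Its LCN13 difference, averaged over TSC22D4 status, was -0.25 (adjusted p = 0.0022). Phf11d (-1.90 and -0.29) and Ddx58, the RNA sensor RIG-I (-1.37 and -0.31), also had all 6 arrays with the virus below the 6 without.

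**Figure D5:**
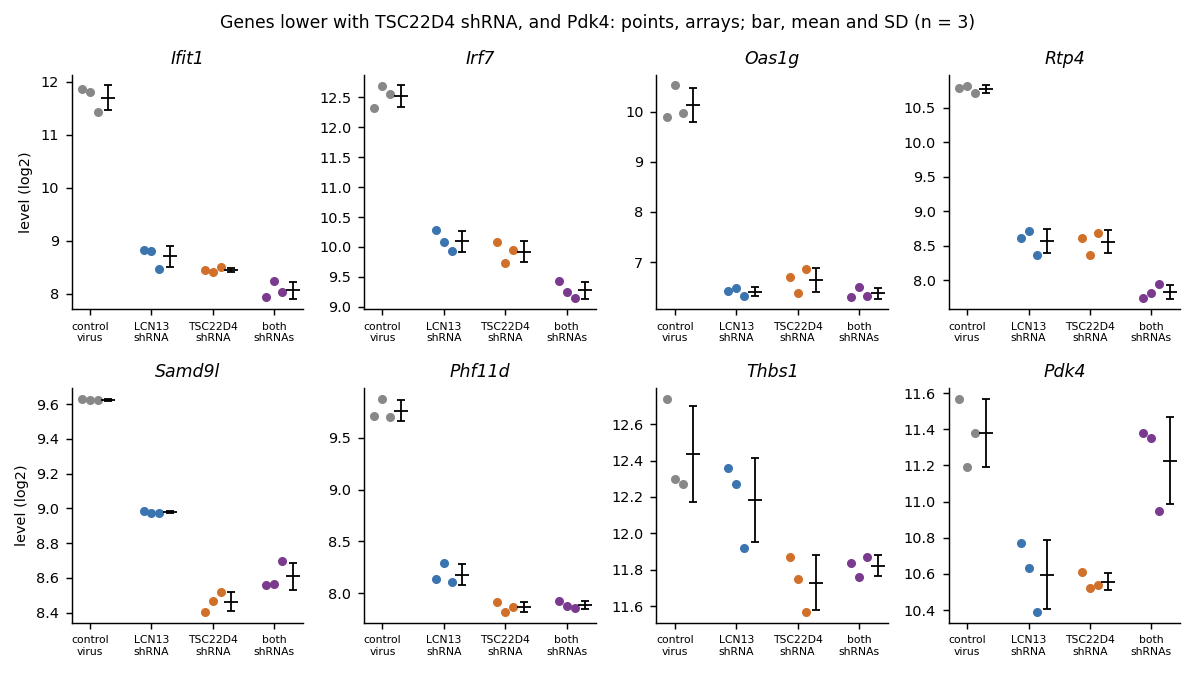
Points are single arrays and bars the mean with SD (n = 3 arrays per group) of log2 levels of 7 genes called lower on average with the TSC22D4 virus, and of Pdk4, called for the interaction. Controls are the highest group in Ifit1, Irf7, Oas1g, Rtp4, Samd9l and Phf11d, and the combined arrays of Pdk4 lie between 10.95 and 11.38, near the controls.

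The other decreases named by rank were of the same kind. Usp18, which strips ISG15 from proteins and dampens interferon receptor signalling, differed by -3.00 without and -0.63 with LCN13 shRNA, and Rtp4, an interferon-induced chaperone, by -2.21 and -0.73. The RNA sensors Dhx58 (-2.60 and -0.42) and Ifih1 (-1.59 and -0.31), the Z-nucleic acid sensor Zbp1 (-2.26 and -0.47) and the nucleotide kinase Cmpk2 (-2.06 and -0.29) were lower in both. So were Slfn1 (-2.79 and -0.26), Oasl2 (-1.81 and -0.60), the class I-like H2-T24 (-2.22 and -0.41) and the ubiquitin ligase Rnf213 (-1.53 and -0.34). Their interactions passed. All genes of this paragraph were named for a call on average with arrays apart in both LCN13 statuses, so these traits are not separate results. Usp18 was also named for its interaction. Ms4a4c (-2.30 and -0.51) and Ifi27l2a (-1.32 and -0.57) passed on average but not for the interaction (adjusted p = 0.05 and 0.431 with limma). Of all the decreases named in this paragraph, Ms4a4c was lost without LCN13 replicates 5 and 6 (adjusted p = 0.0603), and none was lost in a leave-one-out fit.

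Fcgr1, the high-affinity receptor for IgG, was the one macrophage marker of 20 that fell (-0.84, SE 0.161, limma adjusted p = 0.0413), with -1.56 without and -0.11 with LCN13 shRNA. It was 10.51 to 11.41 log2 in controls and 8.84 to 9.77 in the other 9 arrays. That call ended in 9 of 12 leave-one-out fits (adjusted p up to 0.106), all but those without control replicate 1, LCN13 replicate 8 and TSC22D4 replicate 12. It also ended without LCN13 replicates 5 and 6 together (-0.86, adjusted p = 0.291). Among the 20 macrophage markers 16 were negative with a median of -0.06, and the macrophage marker Adgre1 stood at -0.02 (adjusted p = 0.886).

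Genes outside the interferon list also fell. Thbs1, thrombospondin 1, a matrix glycoprotein that can activate latent TGF-beta, read 12.74, 12.30 and 12.27 in control, 12.36, 12.27 and 11.92 in LCN13, 11.87, 11.75 and 11.57 in TSC22D4 and 11.84, 11.76 and 11.87 log2 in combined arrays. All 6 arrays with the virus were below the 6 without, by a small margin to LCN13 replicate 8. The difference was -0.53 (SE 0.102, limma adjusted p = 0.0413) and was lost in 10 of 12 leave-one-out fits (all but control replicate 1 and LCN13 replicate 8). Thbs2, its relative, fell by 0.44 on the log2 scale (adjusted p = 0.0391), a call lost in 8 fits (kept without control replicate 2, LCN13 replicate 8 and combined replicates 14 and 16). The Thbs2 difference was -0.66 without LCN13 shRNA and -0.22 with it, where the arrays overlapped. These were the calls among 32 extracellular matrix genes, of which 23 were positive. Ier3, an early response gene (-0.31, limma adjusted p = 0.0481), and the heat shock co-chaperone Dnajb1 (-0.20, adjusted p = 0.0353) fell as well. Ier3 differed by -0.13 without LCN13 shRNA, where the arrays overlapped, and by -0.50 with it. For Dnajb1 the values were -0.18 and -0.21. Neither gene was called within a single LCN13 status. Ier3 was lost in 9 fits (kept without control replicate 1, LCN13 replicate 8 and combined replicate 14) and Dnajb1 in 10 (kept without LCN13 replicate 8 and combined replicate 16). Of 20 immediate early genes 16 were negative, with a median of -0.07, and Ier3 was the one call. None of these 4 genes passed without LCN13 replicates 5 and 6 (adjusted p from 0.258 to 0.358).

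Among genes with a large difference and no call, Apod, a lipocalin that carries small lipids, had all 6 arrays with the virus below the 6 without. Its difference was -0.94 (SE 0.212, limma adjusted p = 0.0694), with -0.97 without and -0.92 with LCN13 shRNA. Grb14, an adaptor that inhibits the insulin receptor, had all 6 above the 6 without, at 0.64 (SE 0.158, adjusted p = 0.0902).

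The interaction was called for 23 genes whose averaged difference did not pass, 17 positive and 6 negative. Pdk4, the kinase that shuts off pyruvate dehydrogenase and spares glucose, read 11.57, 11.19 and 11.38 in control, 10.77, 10.63 and 10.39 in LCN13, 10.61, 10.52 and 10.54 in TSC22D4 and 11.38, 11.35 and 10.95 log2 in combined arrays. Either gene-directed virus alone went with lower Pdk4, and the combined arrays overlapped the controls. The TSC22D4 difference was -0.82 without (adjusted p = 0.0243) and 0.63 with LCN13 shRNA (adjusted p = 0.193), and the interaction was 1.45 (SE 0.196, limma adjusted p = 0.0147). Slfn8, Slfn9, H2-Q7 and Ifi47, all interferon-inducible, had interactions of 1.70, 1.40, 1.56 and 1.36.

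None of the 7 negative interactions reached a size of 1 on the log2 scale, against 51 of the 85 positive ones. Des, the desmin filament of muscle cells, read 9.24, 9.21 and 9.30 in control, 9.63, 9.62 and 9.56 in LCN13, 9.58, 9.61 and 9.47 in TSC22D4 and 9.51, 9.38 and 9.49 log2 in combined arrays. Its difference was 0.30 without (adjusted p = 0.0126) and -0.15 with LCN13 shRNA (adjusted p = 0.299), with an interaction of -0.45 (SE 0.0639, limma adjusted p = 0.018). Plec, a linker of such filaments (-0.40), Podxl, a surface sialomucin (-0.60), Mrto4, a ribosome assembly factor (-0.61), and the recycling GTPase Rab11b (-0.47) had the same sign. In each of these the LCN13 arrays were the highest group or level with the TSC22D4 arrays. Mrps2, a mitochondrial ribosomal protein, was the one called higher gene with a called interaction (0.28 without and -0.01 with LCN13 shRNA), lost in 8 leave-one-out fits (kept without control replicates 1 and 2, LCN13 replicate 8 and combined replicate 16) and without LCN13 replicates 5 and 6 together (0.13, adjusted p = 0.203).

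Fixed readouts of fat function gave no call (0 of 16 by limma, 3 higher and 2 lower at an unadjusted p under 0.05, 2 higher with array weights). The matching unadjusted and array-weight counts over all 23185 genes were 1877, 1850 and 394. Leptin, Lep, was 13.90 to 13.94 log2 without and 13.95 to 14.01 with the TSC22D4 virus, near the upper end of the scale, a difference of 0.05 (SE 0.0144, adjusted p = 0.14). Adiponectin, Adipoq, differed by -0.07 (adjusted p = 0.571), the adipogenic regulator Pparg by 0.02 (adjusted p = 0.803) and the glucose transporter Slc2a4 by -0.06 (adjusted p = 0.885). The insulin receptor substrates Irs1 and Irs2 differed by -0.17 and 0.20, the lipase Pnpla2 by -0.06, Pck1 by -0.28, Ucp1 by -0.04 and the desaturase Scd1 by 0.01. Inflammatory readouts were Tnf (-0.15), Ccl2 (-0.36) and Saa3 (0.50), with adjusted p from 0.221 to 0.318. Saa3 was 1.13 without and -0.13 with LCN13 shRNA, and its arrays overlapped.

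Red blood cell, mesothelial and liver markers gave no call and varied between arrays of the same group. For comparison, 1877 of all 23185 genes were higher and 1850 lower at an unadjusted p under 0.05. Red blood cell markers were positive for 6 of 6 measured genes, with a median of 0.60 (0.15 without and 1.05 with LCN13 shRNA), 0 calls and 4 at an unadjusted p. Their array means ran from -0.89 to 0.37 without the TSC22D4 virus and from -0.14 to 0.83 with it. All 15 mesothelial markers were negative, with a median of -0.16 (-0.03 without and -0.35 with LCN13 shRNA), 0 calls and 5 at an unadjusted p, and the median was 0.05 without LCN13 replicates 5 and 6. The mesothelial array means ran from -0.27 to 0.49 without and from -0.24 to -0.01 with the virus. Of 18 liver markers 13 were negative with 0 calls. Cyp2e1 had the highest mean level at 9.85 log2, and Alb stood at 9.49, Ttr at 6.71 and Apoa1 at 6.22. The liver array means ran from -0.224 to 0.273 without and from -0.236 to 0.338 with the virus. The part of these cells in the differences above was not tested beyond leaving out LCN13 replicates 5 and 6.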

How the data were processed

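Fat RNA of 12 mice was measured on arrays, 3 per group. The authors deposited 1 log2 value per probe set and array, made with RMA per the submitters' processing notes. Its version and settings, the build and the probe set definitions were not given in the sources used here. Sorted columns of the deposited values differed by at most 0.00188, so the arrays share one distribution. That removes changes common to most genes and compresses differences at the lower end. The files give no detection calls, so dim probe sets cannot be told from background. The number of arrays limits the precision. Pairs within a group correlated at 0.994 to 0.998 over probe sets. Per the labels the arrays are separate mice.

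Probe sets were named through GEO's platform annotation and a RefSeq gene table of GRCm38.p6: 23185 had 1 symbol, 0 several, and 2021 had none and were left out. limma 3.58.1 in R 4.3.3 fitted 1 mean per group over all 12 arrays (8 residual and 1.38 prior degrees of freedom, median residual SD 0.0647). Contrasts were the TSC22D4 difference averaged over LCN13 status, that without and with LCN13 shRNA, their interaction, and the averaged LCN13 difference. A gene was called where the two-sided p, adjusted by Benjamini-Hochberg over the 23185 genes, was under 0.05, and all adjusted p-values are limma's. The fit was tested on simulated data.

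Genes were named by rule: up to 15 per direction called on average with arrays apart in both LCN13 statuses, up to 5 per direction called on average and for the interaction, up to 5 per direction called for the interaction alone, the shRNA targets, 16 readouts, and up to 6 called or else up to 3 members of each of 46 lists. Predicted, RNA and chemosensory genes were not named by rank. Exceptions are stated in the text. Members, lists and tests were chosen with earlier results of these data known. Alternatives were array weights, an intensity trend with robust variance, an additive model, LCN13 status left out, brighter probe sets, cyclic loess, all probe sets, an exact permutation test, each array left out and, chosen after seeing the data, LCN13 replicates 5 and 6 left out.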

Additional observations from a re-analysis of the deposited data

Results flagged for a closer look

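The TSC22D4 difference was unequal between the LCN13 statuses for 29 of the named genes by limma's interaction test. In this test the difference without LCN13 shRNA is subtracted from that with it. The statuses also differed in the amount of control virus, and the part of each cannot be told apart. The antiviral genes gave positive log2 values: Oas1g 3.46, Oas3 3.42, Ifit1 2.61, Slfn1 2.54, Usp18 2.37, Dhx58 2.18, H2-T24 1.80, Zbp1 1.79, Irf7 1.78 and Cmpk2 1.77. Smaller positive values were those of Slfn8 at 1.70, Phf11d at 1.60, H2-Q7 at 1.56, Rtp4 at 1.48, Slfn9 at 1.40, Ifi47 at 1.36, Ifih1 at 1.28, Oasl2 at 1.21, Rnf213 at 1.19, Ddx58 at 1.06 and Samd9l at 0.79. Outside the antiviral genes, Pdk4 stood at 1.45 and Slc27a1 at 0.36. Negative values were found for Mrto4 (-0.61), Podxl (-0.60), Rab11b (-0.47), Des (-0.45), Plec (-0.40) and Mrps2 (-0.30). The genes were named partly for passing this test.

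Among the 2021 probe sets without a gene symbol, which the comparisons above left out, 24 passed for the averaged TSC22D4 difference, 11 higher and 13 lower, with log2 values from -1.25 to 1.28.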

How the results depend on the processing

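Averaged over LCN13 status, 323 genes were called. The count was 810 with array weights, 76 in an additive model, 11 with LCN13 status left out, 61 without LCN13 replicates 5 and 6 (chosen after seeing the data) and 132 to 718 with 1 array left out. It stayed within 1.5 times with an intensity trend (363), brighter probe sets (459), cyclic loess (307) and all probe sets (323). All 323 kept their sign in each of these, or the 305 tested with brighter probe sets. Without LCN13 shRNA, 272 calls became 447 with array weights, 142 with only the 6 arrays compared, and 153 to 350 with 1 array left out. With LCN13 shRNA, 2 calls became 14 with array weights, 8 with an intensity trend, 7 with brighter probe sets, 8 with cyclic loess, 0 with only the 6 arrays compared, 0 without LCN13 replicates 5 and 6, and 0 to 94 with 1 array left out (94 without LCN13 replicate 8). The interaction had 92 calls, 35 without LCN13 replicates 5 and 6 and 47 to 104 with 1 array left out. The averaged LCN13 difference had 251 calls, 614 with array weights, 90 without LCN13 replicates 5 and 6 and 135 to 389 with 1 array left out. The cause of these shifts was not tested, except that fewer arrays enter some fits. Single genes near 0 changed sign: Tsc22d4 with array weights (0.0126; -0.061 to 0.016 with 1 array left out), Scd1 with cyclic loess (-0.0092) and without LCN13 replicates 5 and 6 (-0.0074; -0.0080 to 0.020 with 1 left out), Slc2a4 and Pdk4 without LCN13 replicates 5 and 6 (0.10 and 0.011), and, with 1 array left out, Slc2a4 (-0.15 to 0.016), Adgre1 (-0.067 to 0.0095), Mrto4 (-0.058 to 0.00064) and Podxl (-0.024 to 0.043). By the exact permutation test, whose smallest p is 0.005 over 400 arrangements, 1 called gene (Mrps2) did not pass and 16 others of 90 passed. These permutation p-values were not adjusted for the number of genes, unlike the calls. Genes named for arrays apart in both LCN13 statuses have the smallest p by their selection, so the test adds nothing for them. No paired analysis was possible because the groups share no replicate numbers.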

Other observations

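Gene lists not described above gave no call for the averaged TSC22D4 difference by limma, except where 1 is named. For comparison, 1877 of all 23185 genes were higher and 1850 lower at an unadjusted p under 0.05. With array weights 394 of all genes were called higher and 416 lower, and 47.25% of all genes were positive. Angptl8 was the one call among 12 genes of lipoprotein lipase and its regulators. Nrg4 was the one among 15 brown and beige adipocyte genes, and Dnajb1 the one among 14 heat shock genes. Of 38 oxidative phosphorylation genes, which carry electrons and make ATP in mitochondria, 26 were positive with a median of 0.02 (2 higher and 1 lower at an unadjusted p under 0.05, 0 with array weights). Fatty acid oxidation had 13 of 16 genes positive, with a median of 0.05 and 3 higher unadjusted. Breakdown of branched-chain amino acids had 12 of 17 positive, with 5 higher unadjusted and 1 called with array weights. Of 25 chemokines and cytokines 15 were negative, with 6 lower and 1 higher unadjusted and 2 called lower with array weights. Of 16 circadian clock genes 8 were positive, and 0 passed even unadjusted. Their array means were spread within groups, at -0.24, -0.28 and 0.12 in control and 0.22, 0.22 and -0.28 in combined arrays. In TSC22D4 arrays they were -0.24, 0.03 and 0.01, and in LCN13 arrays 0.16, 0.19 and 0.10. The cause of this spread was not tested. Cell cycle genes were positive for 20 of 26, with 5 higher and 1 lower unadjusted. Among 20 T and NK cell markers the one call was Ncr1, and 11 were negative.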
